A study of Homo sapiens with 27 samples.

Results

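The transcription factors that mark and maintain the luminal epithelial lineage of the breast were followed through 6 long-term estrogen-deprived (LTED) variants of 2 lobular breast cancer cell lines. The 10 members are FOXA1, GATA3, TFAP2A, TFAP2B, TFAP2C, SPDEF, ELF3, ELF5, GRHL2 and TBX3. They are a list of gene names chosen with earlier results of these data known. All 10 were found among the 60619 genes of the deposited count table. RNA was sequenced from 27 libraries in 9 groups of 3. MM134 (MDA-MB-134VI) and SUM44 (SUM44PE) are estrogen receptor-positive lines of invasive lobular carcinoma. MM134 parental cells, SUM44PE parental cells and SUM44F parental cells (SUM44PE grown for months in DMEM:L-15 medium with fetal bovine serum) were hormone-deprived in charcoal-stripped serum for 3 days before RNA was collected. The 4 LTED variants of MM134 (-A, -B, -D and -E) and the 2 of SUM44 (-A and -B) had been grown in charcoal-stripped serum for months and were kept in it. SUM44F is the parent of both SUM44 variants, and each variant is a single derived culture. The 3 libraries of a group came from wells of one culture, so a p-value here covers the spread between wells and not that between independent derivations.

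Total counts per library ranged from 28583554 to 134882175, with a median of 44018412. In SUM44 LTED-A, the libraries of replicates 2 and 3 differed by less than sampling noise (chi-square per degree of freedom 0.312, against 2.35 to 58.1 in the other 26 pairs of replicates) and were counted as 1 sample, which left n = 2 in that group. The luminal keratins KRT8, KRT18 and KRT19 and the epithelial antigen EPCAM were high in every group (group means of 581 to 2777, 482 to 1345, 1014 to 3847 and 251 to 562 CPM, counts scaled to the size of the library), whereas MUC1 reached only 0.471 CPM in MM134 parental cells and 16.0 CPM at most. The basal keratins KRT5 and KRT14 did not exceed 0.0696 and 0.269 CPM as group means. TP63, a further basal marker, was at 2.85 CPM in SUM44F and 1.08 CPM in SUM44PE, and at 0.4255 CPM at most in the other groups. Of 10 markers of immune, endothelial and fibroblast cells, 7 were at 1 CPM or more in SUM44F replicate 1, with a summed level of 297 CPM against 39.7 and 33.2 CPM in the other SUM44F replicates, and COL3A1 (a fibrillar collagen of fibroblasts) at 131 CPM against 0.694 and 0.462 CPM. COL3A1 was at 5.49 CPM in MM134 parental replicate 3 and at 5.28 CPM in MM134 LTED-D replicate 2, where the summed levels were 32.8 and 29.1 CPM, while the other libraries of MM134 lay between 12.3 and 26.8 CPM, those of SUM44PE between 20.5 and 22.3 CPM and those of the SUM44 variants between 8.51 and 12.6 CPM. CD3E was at most at 0.148 CPM in any library. The tests were therefore also run without these 3 libraries, an alternative chosen after seeing the data, and its values are given where the call of a member changes. The part of the other cells' RNA in the results was not tested.

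In luminal cells, FOXA1 opens chromatin as a pioneer factor at sites where the estrogen receptor binds, GATA3 works in a circuit with both, and the AP-2 proteins (TFAP2A, TFAP2B, TFAP2C) occupy many of the same enhancers. SPDEF, ELF3 and ELF5 are epithelial members of the ETS family, GRHL2 is a grainyhead factor that maintains the epithelial state, and TBX3 is a T-box repressor needed for mammary development. GATA3, FOXA1 and TBX3 are among the genes recurrently mutated in luminal breast cancers.

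The promoters of 7 of the 10 members had an entry in the RefSeq table used here (build GRCh38.p14). A promoter is the stretch from 250 bases before to 50 bases after an annotated transcription start. Those of ELF3 and GATA3 are printed because these factors differed between the lines in their LTED change, and that of TFAP2B because this gene separated the lines most widely. The windows are chr1:202010337-202010636 (plus strand) for ELF3, chr10:8054438-8054737 (plus strand) for GATA3, and chr6:50818621-50818920 (plus strand) for TFAP2B. Capitals mark a match to an AP-2 motif.
ELF3: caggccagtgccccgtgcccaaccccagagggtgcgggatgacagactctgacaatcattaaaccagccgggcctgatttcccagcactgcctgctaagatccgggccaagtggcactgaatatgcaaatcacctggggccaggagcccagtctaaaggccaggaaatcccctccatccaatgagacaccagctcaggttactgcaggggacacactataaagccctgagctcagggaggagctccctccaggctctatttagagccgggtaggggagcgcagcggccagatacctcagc
GATA3: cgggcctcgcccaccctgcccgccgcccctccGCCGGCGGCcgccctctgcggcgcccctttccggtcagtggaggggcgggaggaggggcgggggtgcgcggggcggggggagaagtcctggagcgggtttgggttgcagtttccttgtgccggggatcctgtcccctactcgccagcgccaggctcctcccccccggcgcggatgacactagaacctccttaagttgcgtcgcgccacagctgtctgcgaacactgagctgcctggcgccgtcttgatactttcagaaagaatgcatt
TFAP2B: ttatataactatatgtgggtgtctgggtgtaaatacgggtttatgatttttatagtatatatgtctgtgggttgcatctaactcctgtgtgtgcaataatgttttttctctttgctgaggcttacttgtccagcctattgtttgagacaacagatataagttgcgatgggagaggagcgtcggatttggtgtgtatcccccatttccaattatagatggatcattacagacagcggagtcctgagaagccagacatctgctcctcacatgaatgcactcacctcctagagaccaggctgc
Each window was searched on both strands for 7 motifs, GCCNNNGGC for AP-2, TGTTTAC for forkhead, AGATAA for GATA, CCGGAAGT for ETS, AACNGGTT for grainyhead and AGGTGTGA for T-box factors, and the palindromic estrogen response element. The AP-2 letters were found in the GATA3 window at -218 from the start, and in 23.2% of all 35116 promoters of the table. GATA3 has 6 start sites and so 6 windows in the table, of which 3 hold these letters. No match to any of these motifs was found in the windows of ELF3 and TFAP2B. The forkhead letters were found in the window of ELF5 at -193 (3.42% of all promoters). Such a match is a description of the letters and not a binding site.

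Levels are given as CPM normalised by the trimmed mean of M-values (TMM) over all samples. A gene was called differentially expressed (DE) when its fold change exceeded 1.5 and its adjusted p in edgeR's quasi-likelihood test (Benjamini-Hochberg over all genes tested) was below 0.001. All comparisons of MM134 variants share the same parental libraries, as do those of the SUM44 variants. The levels in every sample are plotted for all members on a log axis.

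**Figure D1:**
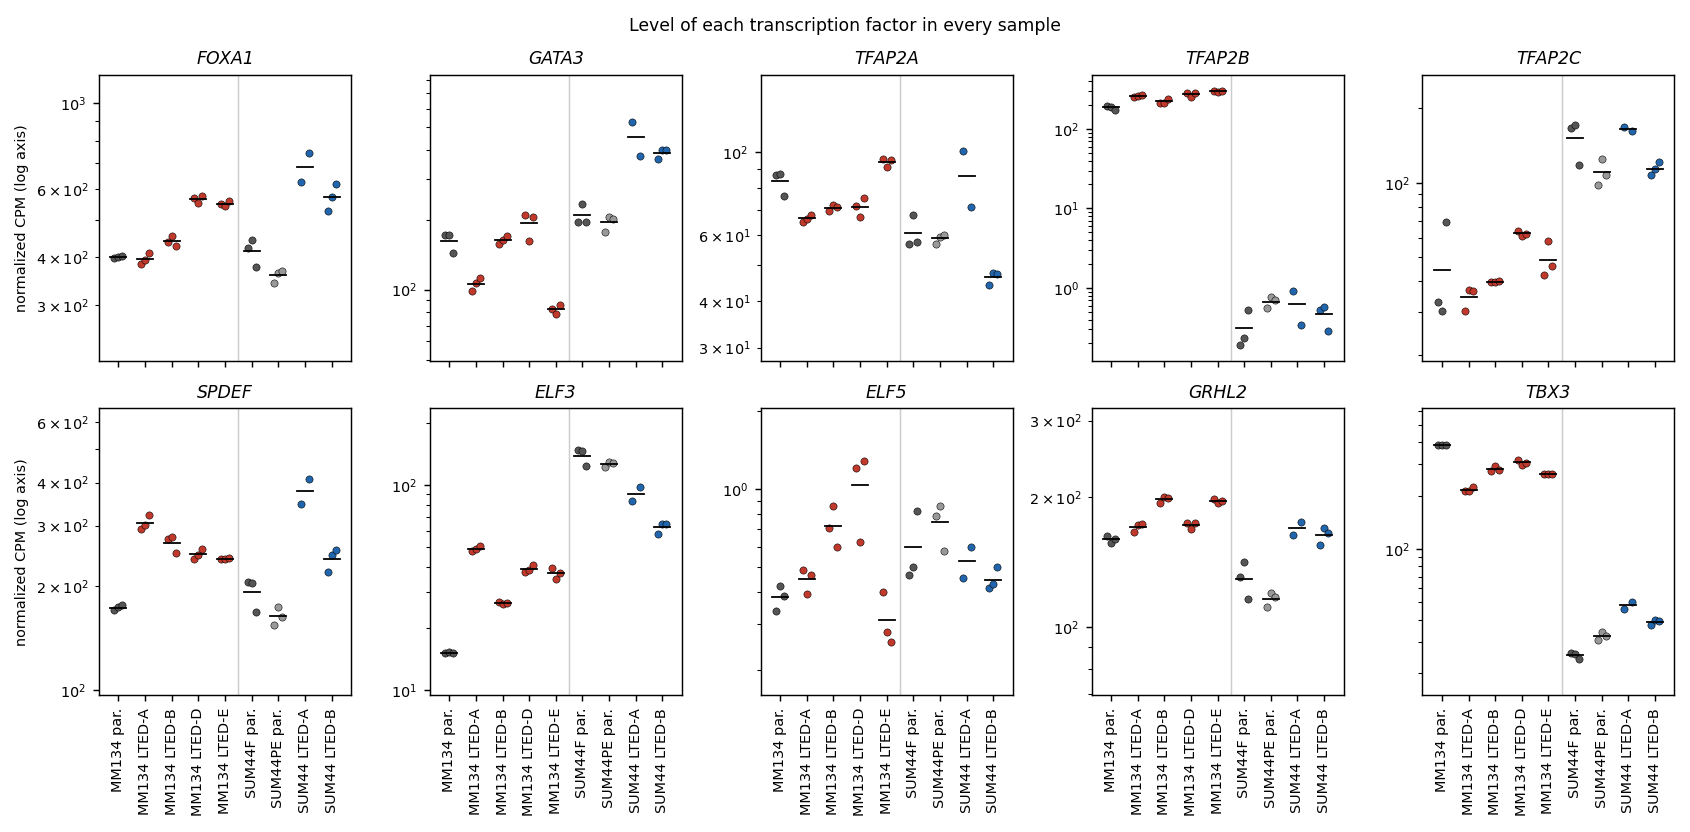
Level of each of the 10 members (CPM, log axis) in every sample of the 9 groups. A point is a sample and the short line is the group mean. TFAP2B and TBX3 stand high in the MM134 groups and low in the SUM44 groups, ELF3 and TFAP2C the reverse, and FOXA1 and GRHL2 vary by less than 2-fold over all group means.

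The parental cells of the lines differed in the levels of some members, at about the share seen over all genes. Between MM134 parental and SUM44F cells, 4 of the 10 members were DE, where 38.1% of all genes tested were DE. TFAP2B was 9.01 log2 units higher in MM134 (SE 0.20, 516-fold, adjusted p = 3.7e-22). Its counts in the 3 SUM44F replicates were 9, 12 and 48, and on leaving out 1 sample the difference ranged from 8.80 (without SUM44F replicate 1) to 9.74 (without SUM44F replicate 3). TBX3 was 3.94 log2 units higher in MM134 (SE 0.04, 15.3-fold, adjusted p = 4.4e-27). ELF3 was lower in MM134 by a log2 difference of -3.20 (SE 0.06, adjusted p = 4.4e-23) and TFAP2C by -1.79 (SE 0.20, adjusted p = 2.4e-08), or by -2.21 without the libraries with fibroblast markers (adjusted p = 1.8e-11). The remaining 6 members were not DE. FOXA1 differed by a log2 value of -0.05 (SE 0.05), SPDEF by -0.16 (SE 0.06), GRHL2 by 0.30 (SE 0.05), GATA3 by -0.37 (SE 0.12), TFAP2A by 0.46 (SE 0.10) and the sparsely counted ELF5 by -0.68 (SE 0.28). Line and culture history cannot be told apart in this comparison. Between the 2 parental cultures of SUM44, SUM44PE and SUM44F, none of the members was DE with edgeR or with DESeq2, where 5.57% of all genes were, and 4 members had an unadjusted p under 0.05. One member, TBX3, had an adjusted p under 0.001 there, 0.40 log2 units higher in SUM44PE (SE 0.06, adjusted p = 0.000311), which is below the required fold.

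Against parental cells, 4 of 10 members were DE in MM134 LTED-A, 2 in LTED-B, 2 in LTED-D and 3 in LTED-E, where 20.3%, 15.9%, 17.6% and 19.0% of all genes tested were DE. In SUM44 LTED-A 5 of 10 members were DE and in LTED-B 2 of 10, beside 13.7% and 17.3% of all genes. Simulated 2-fold changes were recovered at 90.5% in MM134 LTED-A, but at 45.5% and 45% in SUM44 LTED-A and -B. A missing call in SUM44 is therefore not a sign of no change. The median log2 change of the members was 0.01, 0.16, 0.47 and 0.20 in MM134 LTED-A, -B, -D and -E, beside medians over all genes of -0.01, 0.02, -0.03 and 0.02. In SUM44 LTED-A and -B it was 0.56 and 0.28, beside -0.06 and -0.09 over all genes. ELF3 was DE in all 6 variants, and no other member was. When the 3 libraries with fibroblast markers were left out, 4, 2, 3 and 4 members were DE in the MM134 variants and 3 and 2 in the SUM44 variants. Over all genes, 5070, 3911, 4172 and 4767 of 26711 were DE in these fits of MM134, and 3245 and 4223 of 26719 in those of SUM44. The test of the difference between lines, the mean change over the 4 MM134 variants less the mean change over the 2 SUM44 variants, called 3 of 10 members (ELF3, GATA3 and TBX3), beside 21.0% of all genes. These 3 calls held in all 23 fits that left out 1 sample. Among the 4 MM134 variants themselves, 3 of 10 members differed (GATA3, ELF3 and ELF5), beside 19.6% of all genes. TFAP2C had a log2 range of 0.86 over the variants (adjusted p = 0.00606) and was not called. It was called too, which made 4 members, without the libraries with fibroblast markers (0.88, adjusted p = 4.1e-06) and without a filter on low counts (0.84). In these settings 4916 of 26711 and 5719 of 49006 genes were called.

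**Figure D2:**
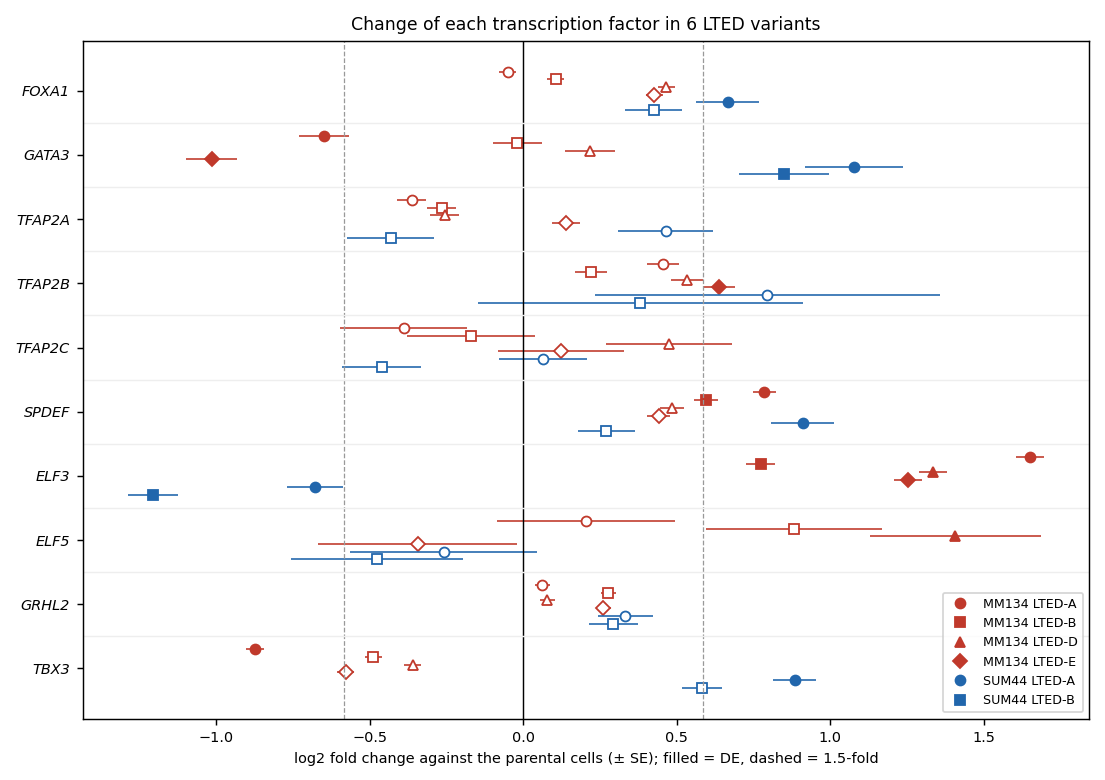
Log2 fold change of each member in the 6 LTED variants against the parental cells of the same line (MM134 parental or SUM44F). Error bars are SE derived from the F statistic of the edgeR test, filled symbols are DE and dashed lines mark a 1.5-fold change. ELF3 lies above 0 in the 4 MM134 variants and below 0 in the 2 SUM44 variants, and TBX3 lies on the opposite sides.

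ELF3 rose in every MM134 variant and fell in both SUM44 variants. In MM134 parental cells it was at 15.1, 15.4 and 15.1 CPM. It was at 47.5, 48.8 and 50.2 CPM in LTED-A, at 26.9, 26.2 and 26.5 CPM in LTED-B, at 37.8, 38.6 and 40.9 CPM in LTED-D, and at 39.2, 34.9 and 37.0 CPM in LTED-E. No LTED sample of MM134 overlapped the parental range. ELF3 rose most in LTED-A, by 1.65 log2 units (SE 0.04, adjusted p = 3.7e-16). LTED-D followed with 1.33 (SE 0.05, adjusted p = 1.9e-14), LTED-E with 1.25 (SE 0.05, adjusted p = 3.2e-14) and LTED-B with 0.77 (SE 0.05, adjusted p = 7.6e-11). The samples of LTED-D and LTED-E overlapped each other, and those of the other neighbours in this order did not. In SUM44 the gene started from a higher level. SUM44PE had 123, 130 and 128 CPM and SUM44F had 148, 146 and 124 CPM, whereas SUM44 LTED-A had 83.6 and 98.1 CPM and LTED-B had 57.6, 64.8 and 64.8 CPM. Every LTED sample of SUM44 lay below every parental sample. ELF3 fell by 0.68 log2 units in LTED-A (SE 0.09, adjusted p = 0.000199) and fell by 1.20 in LTED-B (SE 0.08, adjusted p = 1.0e-06). The call in SUM44 LTED-A was lost on leaving out SUM44F replicate 2 (log2 change -0.63) or LTED-A replicate 1 (-0.60). The changes differed between the lines by 2.19 log2 units (SE 0.07, adjusted p = 3.4e-18). The group means of ELF3 lay 9.18-fold apart between MM134 parental cells and SUM44F, while those of MM134 LTED-A (48.8 ± 1.38 CPM, SD, n = 3) and SUM44 LTED-B (62.4 ± 4.17 CPM, SD, n = 3) lay nearest to each other across the lines. The reads of ELF3 overlap those of its antisense gene ELF3-AS1 (1.62 CPM in MM134 parental cells, 14.6 CPM in SUM44F), and the strand setting of the count is not given in the sources used here, so part of the reads may belong to either gene.

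SPDEF, the ETS factor of secretory luminal cells, was higher in LTED than in parental cells in both lines. MM134 parental cells had 170, 174 and 176 CPM. LTED-A had 294, 302 and 323 CPM, LTED-B had 275, 278 and 250 CPM, LTED-D had 241, 246 and 256 CPM and LTED-E had 241, 240.3 and 241 CPM, with no overlap with the parental samples. SPDEF rose in LTED-A by a log2 fold change of 0.79 (SE 0.04, adjusted p = 2.5e-12) and in LTED-B by 0.59 (SE 0.04, adjusted p = 2.3e-10). The latter, a 1.51-fold change, fell below the required fold without parental replicate 1 (0.58), without LTED-B replicate 1 (0.58) and without LTED-B replicate 2 (0.57). LTED-D and LTED-E had values of 0.48 and 0.44, short of the required fold, with adjusted p of 3.9e-09 and 1.3e-08. In SUM44 the parental samples had 155, 174 and 163 CPM (SUM44PE) and 207, 204 and 169 CPM (SUM44F). SUM44 LTED-A had 346 and 410.3 CPM and LTED-B had 221, 246 and 255 CPM, above all parental samples. SPDEF rose in SUM44 LTED-A by 0.91 (SE 0.10, adjusted p = 5.2e-05), a call that held in all 5 fits that left out 1 sample, and had a value of 0.27 (SE 0.09, adjusted p = 0.0355) in LTED-B. The lines did not differ detectably in the mean LTED change of SPDEF (-0.02, SE 0.07, adjusted p = 0.880).

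ELF5, the ETS factor of alveolar luminal progenitors, was close to the limit of detection, with 12 to 75 counts and 0.256 to 1.28 CPM per sample. MM134 LTED-D had 1.21, 0.625 and 1.28 CPM against 0.338, 0.424 and 0.385 CPM in parental cells. These ranges did not overlap, and ELF5 rose in LTED-D by a log2 fold change of 1.41 (SE 0.28, adjusted p = 0.000301). The call was kept when LTED-D replicate 2 was left out and was lost on leaving out any one of parental replicates 1, 2 and 3 (1.32, 1.495 and 1.41) or LTED-D replicates 1 and 3 (1.30 and 1.22). Without the libraries with fibroblast markers the value was 1.67 (adjusted p = 8.3e-05). The other 5 variants had values from -0.48 to 0.88 and were not DE.

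GATA3 fell in 2 of 4 MM134 variants and rose in both SUM44 variants. In MM134 parental cells it was at 172, 171 and 143 CPM. LTED-A had 98.4, 107 and 113 CPM and LTED-E had 82.4, 78.6 and 85.7 CPM, all below the parental samples. LTED-B had 158, 163 and 170 CPM and LTED-D had 210, 163 and 206 CPM, both overlapping the parental range. GATA3 fell by 0.65 log2 units in LTED-A (SE 0.08, adjusted p = 1.4e-06) and fell by 1.01 in LTED-E (SE 0.08, adjusted p = 4.7e-09). Its values in LTED-B and LTED-D were -0.02 (SE 0.08) and 0.22 (SE 0.08, adjusted p = 0.0309). The lowest parental and the lowest LTED-D level were in the libraries with COL3A1 at 5.49 and 5.28 CPM, and without these libraries the values of LTED-A, -B, -D and -E were -0.73, -0.10, 0.24 and -1.09, with the same calls. The 4 variants differed among themselves (log2 range 1.23, adjusted p = 7.3e-10). SUM44PE had 178, 206 and 202 CPM and SUM44F had 196, 234 and 196 CPM. SUM44 LTED-A had 528 and 377 CPM and LTED-B had 365, 399 and 400.4 CPM, so that each LTED sample was above each parental sample. GATA3 rose in SUM44 LTED-A by 1.08 (SE 0.16, adjusted p = 0.000389) and in LTED-B by 0.85 (SE 0.15, adjusted p = 0.000795). Without SUM44F replicate 1, the library with the fibroblast markers, the values were 1.04 (adjusted p = 0.00148) and 0.81 (adjusted p = 0.00337), which miss the threshold. The LTED-A call was also lost without SUM44F replicate 3 (1.05), and the LTED-B call without SUM44F replicate 2 (0.94) or 3 (0.81) or without LTED-B replicate 1 (0.87), 2 (0.84) or 3 (0.84). The lines differed in the LTED change of GATA3 by -1.33 log2 units (SE 0.14, adjusted p = 1.4e-08).

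TBX3 was lower in MM134 LTED cells and higher in SUM44 LTED cells, which is the reverse of ELF3. MM134 parental cells had 388, 386 and 387 CPM. LTED-A had 211, 214 and 224 CPM, LTED-B had 274, 292 and 279 CPM, LTED-D had 317, 300 and 307 CPM and LTED-E had 264, 265 and 266 CPM, and none overlapped the parental samples. LTED-A passed the threshold, with a log2 change of -0.87 (SE 0.03, adjusted p = 7.0e-15). For LTED-B, -D and -E the log2 values of -0.49, -0.36 and -0.58 (adjusted p = 5.2e-11, 3.6e-09 and 3.3e-12) did not reach the required fold. That of LTED-E passed it with DESeq2 and with the relative log expression scaling (-0.59 each). SUM44PE had 30.7, 34.2 and 32.4 CPM and SUM44F had 25.8, 25.7 and 24.0 CPM. SUM44 LTED-A had 46.1 and 50.5 CPM and LTED-B had 37.4, 39.8 and 39.4 CPM, again with no overlap. TBX3 rose in SUM44 LTED-A by 0.88 (SE 0.07, adjusted p = 4.4e-06), and in LTED-B its value was 0.58 (SE 0.06, adjusted p = 3.6e-05), a 1.498-fold change. LTED-B passed the required fold without SUM44F replicate 1 (0.60) or 2 (0.60) and without LTED-B replicate 1 (0.59) or 3 (0.59). It also passed with DESeq2 (0.62), with the relative log expression scaling (0.62), without a filter on low counts (0.60), with SUM44PE added to the fit (0.60) and with every library separate (0.59). The lines differed by -1.31 log2 units (SE 0.05, adjusted p = 4.6e-17). The highest SUM44 group mean, 48.3 CPM, remained below the lowest MM134 group mean, 216 CPM. In the order of the 9 group means, no pair of neighbouring groups overlapped in their samples.

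FOXA1 was among the members with the narrowest range, with group means of 358 to 684 CPM. MM134 parental cells had 398, 399 and 403 CPM, LTED-A 383, 393 and 409 CPM, LTED-B 437, 454 and 428 CPM, LTED-D 567, 551 and 575 CPM and LTED-E 549, 541 and 560 CPM. Only LTED-A overlapped the parental range. No MM134 variant was DE, with log2 values of -0.05, 0.11, 0.47 and 0.43 in LTED-A, -B, -D and -E (SE 0.03 each). SUM44PE had 343, 364 and 369 CPM and SUM44F had 422, 442 and 376 CPM, against 624 and 743 CPM in SUM44 LTED-A and 528, 572 and 617 CPM in LTED-B. FOXA1 rose in SUM44 LTED-A by 0.67 (SE 0.10, adjusted p = 0.000509) and had a value of 0.42 (SE 0.09, adjusted p = 0.00373) in LTED-B. The call in LTED-A was lost without SUM44F replicate 1 (0.69, adjusted p = 0.00201), SUM44F replicate 2 (0.73), LTED-A replicate 1 (0.75) or the merged LTED-A sample (0.62).

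Of the 3 AP-2 genes, TFAP2B and TFAP2C divided the lines. TFAP2B was at 197, 187 and 175 CPM in MM134 parental cells and at 0.191 to 0.908 CPM (9 to 48 counts) in every SUM44 sample. It was at 255, 262 and 268 CPM in MM134 LTED-A, 210, 214 and 240.2 CPM in LTED-B, 286, 254 and 286 CPM in LTED-D and 302, 289 and 299 CPM in LTED-E, all above the parental samples. TFAP2B rose in LTED-E by 0.64 log2 units (SE 0.05, adjusted p = 4.9e-09), and its values of 0.46, 0.22 and 0.53 in LTED-A, -B and -D did not reach the required fold. That of LTED-D did without LTED-D replicate 2 (0.59). In SUM44 the low counts gave 0.80 (SE 0.56) and 0.38 (SE 0.53), and a change was not detectable at this depth.

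TFAP2C, the AP-2 gene most tied to estrogen receptor expression, was at 32.8, 30.3 and 69.7 CPM in MM134 parental cells, with the highest value in replicate 3. The MM134 variants had 30.4, 36.7 and 36.3 CPM (LTED-A), 39.8, 39.8 and 39.9 CPM (LTED-B), 64.0, 60.8 and 62.2 CPM (LTED-D) and 42.5, 58.3 and 45.9 CPM (LTED-E). All variants lay within the parental range or overlapped it, and none was DE (-0.39, -0.17, 0.48 and 0.12, SE 0.21 each). Replicate 3 is the parental library with COL3A1 at 5.49 CPM. Without the libraries with fibroblast markers TFAP2C was 0.97 log2 units higher in LTED-D (adjusted p = 1.9e-06) and 0.60 higher in LTED-E (adjusted p = 0.000132), both DE, and the values in LTED-A and -B turned to 0.09 and 0.31. Leaving out parental replicate 3 alone gave 0.95 in LTED-D and 0.60 in LTED-E, also DE. SUM44PE had 98.4, 125 and 108 CPM, SUM44F 167, 172 and 118 CPM, SUM44 LTED-A 169 and 161 CPM and LTED-B 108, 113 and 121 CPM, and both variants overlapped the parental samples. The log2 values against SUM44F were 0.06 (SE 0.14) and -0.46 (SE 0.13, adjusted p = 0.0143). The latter was DE without SUM44F replicate 3 (-0.62).

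TFAP2A, the third AP-2 gene, had group means of 46.3 to 94.0 CPM and was not DE in any comparison over all samples. Its values lay between -0.36 and 0.14 in the MM134 variants and were 0.46 and -0.43 in SUM44 LTED-A and -B. The value of SUM44 LTED-A was 0.15 without LTED-A replicate 1, and 0.76 and DE without the merged LTED-A sample. SUM44 LTED-A had 101 and 71.3 CPM against 44.1, 47.4 and 47.3 CPM in LTED-B, and these did not overlap. The difference of 0.90 log2 units (SE 0.15, adjusted p = 0.00171) missed the threshold, and it was 1.18 and DE without the merged LTED-A sample. Between SUM44 LTED-A and LTED-B none of the members was DE with edgeR, beside 7.42% of all genes, while 6 had an unadjusted p under 0.05. DESeq2 called 2 (TFAP2A and SPDEF), beside 2666 of 26834 genes.

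Per kilobase of merged exons, TFAP2B made up 54.9% to 68.5% of the summed AP-2 level in the 5 MM134 groups, and TFAP2C made up 83.5% to 87.3% in the 4 SUM44 groups. With the length of the canonical transcript in place of merged exons (chosen after seeing the data) these shares were 44.1% to 58.3% and 67.2% to 73.4%. The summed level per kb of merged exons was 55.2 CPM in MM134 parental cells and 62.1, 57.9, 74.2 and 75.9 in LTED-A, -B, -D and -E. With canonical lengths these sums were 75.1, and 79.6, 75.8, 93.4 and 99.7. The parental sum includes TFAP2C at 69.7 CPM in replicate 3, against 32.8 and 30.3 CPM in replicates 1 and 2. In SUM44 the summed level was 58.2 CPM per kb in SUM44F, 44.1 in SUM44PE, 65.5 in LTED-A and 43.7 in LTED-B. With canonical lengths it was 72.6, 57.5, 85.1 and 54.6 in the same order.

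**Figure D3:**
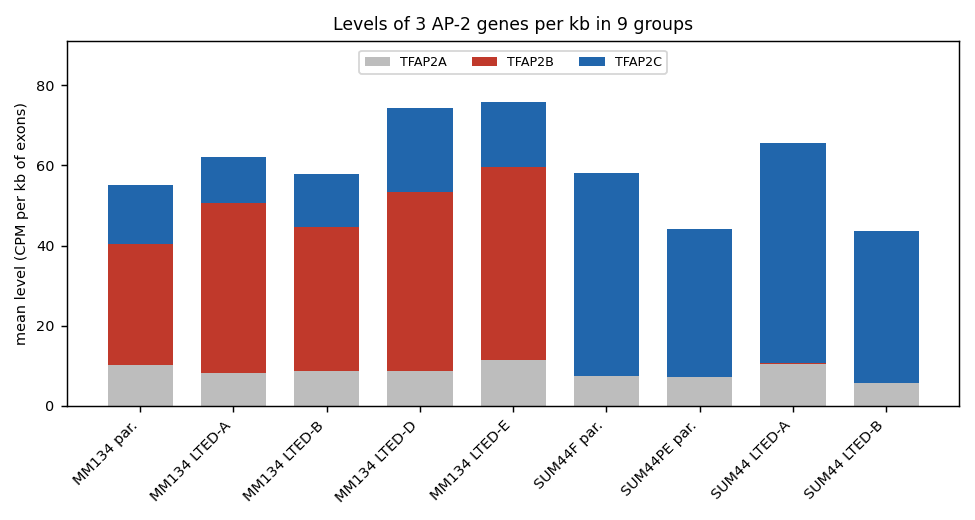
Levels of the 3 AP-2 genes in CPM per kb of merged exons, stacked, as the mean of each of the 9 groups. TFAP2B makes up the largest part of the bar in the 5 MM134 groups and TFAP2C in the 4 SUM44 groups, where TFAP2B is too low to be seen.

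GRHL2 was the steadiest member, with group means of 116 to 197 CPM, a 1.70-fold span. MM134 parental samples had 157 to 162 CPM and the MM134 variants 166 to 200.2 CPM, while the parental samples of SUM44 had 111 to 141 CPM and the SUM44 variants 155 to 175 CPM. The LTED samples were thus above the parental samples of their line, but none of the 6 differences, 0.06 to 0.33 log2 units, was DE. Its paralog GRHL1 rose in MM134 LTED-A, -B and -E (0.97, 0.83 and 1.03), had a value of 0.37 in LTED-D that was not DE, fell by 1.90 in SUM44 LTED-A and had a value of -0.35 in LTED-B that was not DE. GRHL3, counted at 4.68 CPM at most as a group mean, fell in MM134 LTED-A, -B and -E (-0.97, -0.87 and -1.67) and fell by 2.02 in SUM44 LTED-A, with values of -0.54 in MM134 LTED-D and -0.78 in SUM44 LTED-B that were not DE.

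The genes on either side of the members were examined as a description of the chromosome around them. For each member, the 20 nearest expressed genes on each side (mean of at least 5 CPM in the line) were taken, 40 in all. The 40 neighbours of ELF3 had median log2 changes of -0.13 to -0.04 in the MM134 variants, where ELF3 had 0.77 to 1.65. Those of TBX3 had a median of 0.43 in MM134 LTED-D, with 13 of 40 DE upward and 1 downward, while TBX3 had -0.36. Around TFAP2C the median was 0.45 in SUM44 LTED-A, with 15 DE upward and 1 downward, beside 0.06 for TFAP2C. Around GATA3 it was 0.10 in SUM44 LTED-A and 0.31 in LTED-B, beside 1.08 and 0.85 for GATA3. Around GRHL2 it was 0.24 to 0.26 in the MM134 variants, close to or above the values of GRHL2 itself.

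**Figure D4:**
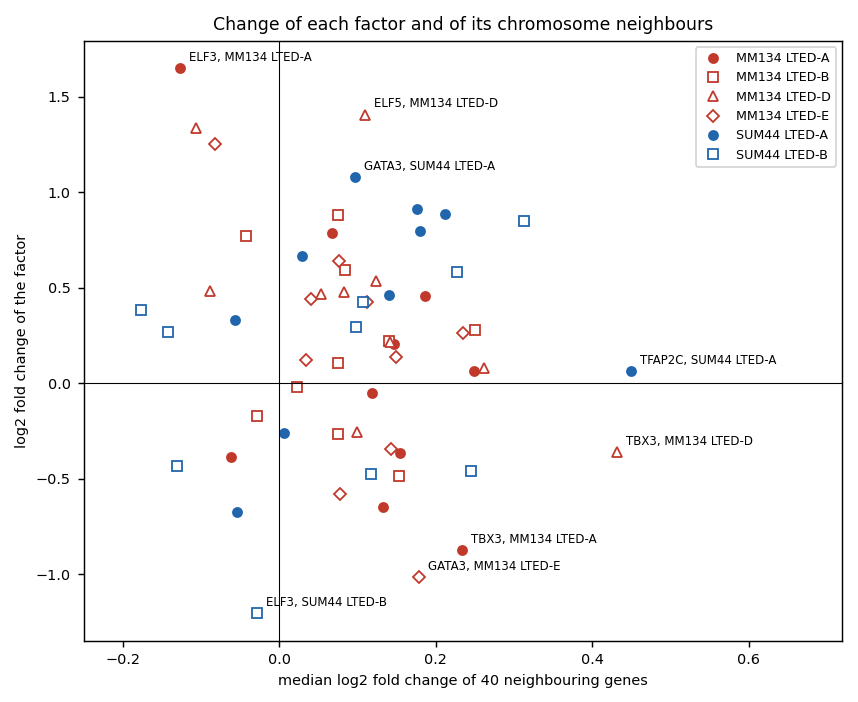
Log2 fold change of each member in each LTED variant (vertical axis) against the median log2 fold change of its 40 expressed neighbours on the chromosome (horizontal axis). The neighbours' medians lie between -0.18 and 0.45, a narrower range than that of the members, and TFAP2C in SUM44 LTED-A lies furthest to the right.

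Relatives of the members from the same gene families (13 genes, of which 11 were tested in MM134 and 10 in SUM44) were counted in the same way. In MM134 LTED-A, -B, -D and -E, 5, 4, 4 and 4 rose and 2, 3, 1 and 3 fell, with medians of 0.27, 0.30, 0.22 and 0.13. EHF, an ETS relative of ELF3 and ELF5, rose in all 4 MM134 variants by 1.57 to 2.94 log2 units, from 23.5 CPM in parental cells to 71.1 to 185 CPM. GATA2 fell in all 4, with log2 values of -2.68 to -1.16, and GATA6 rose in all 4 by 0.88 to 1.41. FOXA3 rose in 3 of 4, but from 0.0195 CPM to 3.35 CPM at most. In SUM44 LTED-A none rose and 3 fell (GRHL1, GRHL3 and EHF, the last with -0.60), and in LTED-B none of 10 was DE with edgeR (medians -0.34 and -0.34). For this list and those below, the background is all genes tested. Of these, 20.3%, 15.9%, 17.6% and 19.0% were DE in either direction in MM134 LTED-A, -B, -D and -E. In SUM44 LTED-A and -B the shares were 13.7% and 17.3%. The medians over all genes were -0.01, 0.02, -0.03 and 0.02, and -0.06 and -0.09. Whether a list leaned up or down more than all genes was not tested.

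Other transcription factors and cofactors of luminal cells formed a list of 16 genes. In SUM44 LTED-A 8 rose and 1 fell, and in LTED-B 6 rose and 2 fell. Their medians were 0.70 and 0.32, beside -0.06 and -0.09 over all genes. The list also stood higher in the parental culture SUM44PE than in SUM44F. There 4 rose and none fell, beside 5.57% of all genes DE, and the median was 0.54, beside -0.02 over all genes. ESR1, the estrogen receptor, rose in LTED-A and -B by 1.30 and 1.25. HES1 (a Notch target), XBP1 (a secretory stress factor) and RARA (a retinoic acid receptor) also rose in both. SUM44PE against SUM44F had values of 0.58 for ESR1, 1.135 for HES1, 1.27 for XBP1 and 0.22 for RARA. In the MM134 variants 3, 3, 2 and 3 rose and 5, 3, 3 and 3 fell (medians -0.19, -0.07, 0.00 and 0.23). PGR and LMO4 fell in all 4, with values of -4.33 to -2.17 and -2.57 to -1.60, and HES1 rose in all 4 by 2.05 to 2.42. PGR was at 2.64 CPM in MM134 parental cells.

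Described targets of GRHL2, SPDEF, AP-2 and ELF5 (14 genes, 12 tested) moved in both directions. In the MM134 variants 4, 4, 1 and 2 rose and 3, 2, 1 and 2 fell, and in SUM44 LTED-A and -B 2 and 2 rose and 0 and 1 fell (medians -0.08, 0.09, 0.10 and -0.06, and 0.21 and 0.16). AGR2, a secretory protein described as an SPDEF target, rose in all 6 variants. Its level went from 3.15 CPM in MM134 parental cells to 287 to 1014 CPM in the variants (6.48 to 8.30 log2 units), and from 293 CPM in SUM44F to 1235 and 1055 CPM (1.80 log2 units or more). ERBB2, a described AP-2 target, fell in all 4 MM134 variants with values of -3.14 to -2.17, from 72.3 CPM to 8.40 to 16.4 CPM. In SUM44 it was at 170 CPM in SUM44F and at 167 and 122 CPM in LTED-A and -B. The relation of ERBB2 to the levels of the AP-2 genes was not tested. CDH1, a GRHL2 target lost in lobular carcinoma, was at 8.98 to 22.3 CPM and fell by 0.63 log2 units in 1 SUM44 variant.

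Among the genes whose group means ran most like those of a member over the 9 groups (13878 genes compared by the root mean square difference of centred log2 means), NECAB3 (0.25) was among the 2 nearest to GATA3. CRABP1, a retinoic acid-binding protein, was nearest to TFAP2B (0.21), followed by BEX3 (0.50). MYLK4 (0.18) and EBLN2 (0.20) were nearest to TFAP2C, SLC20A2 (0.26) and ELF3-AS1 (0.28) to ELF3, and CXADR (0.28) and ENSG00000276077 (0.29) to TBX3. These rest on 9 group means from only 2 lines, so a difference between the lines weighs most in them.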

How the data were processed

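Total RNA from 27 libraries was sequenced by the authors (Illumina HiSeq, stranded total RNA kit). The deposited values are estimated counts per gene, which the authors made with Salmon 0.6.0 (hg38, Ensembl 82). The strand setting is not given in the sources used here. No other file was used. Symbols and positions came from GENCODE v44 by Ensembl ID (56434 of 60619 genes matched).

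Estimated counts were rounded to whole numbers. Genes with low counts were removed with filterByExpr, libraries were scaled by TMM, and edgeR 4.0.16 (R 4.3.3) quasi-likelihood tests were run two-sided, with Benjamini-Hochberg adjustment over all genes. Each SE is the absolute log2 change divided by the square root of the F statistic of its test. The 15 MM134 samples were fitted together, and SUM44F with both SUM44 variants. SUM44PE was added for the comparison of parental cultures, and all 9 groups were fitted for comparisons between lines. The procedure was tested on simulated counts with 200 genes changed 2-fold, drawn only from genes above a minimum expected count. It recovered 90.5% of them for MM134 LTED-A, 45.5% for SUM44 LTED-A and 45% for SUM44 LTED-B. A change of this size in a SUM44 variant can thus be missed. Total counts per library were 28583554 to 134882175, and a level of 3 counts was taken as the detection floor. Intervals from counts cover counting error only. The labels give no batch.

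The alternatives were RLE size factors, no filter, DESeq2 1.42.0, an adjusted p of 0.05, a replicate block, every library separate, a fit adding SUM44PE and leaving out each sample. The fit without the 3 libraries with COL3A1 over 5 CPM and over 10 times their group's median, and the canonical transcript length, were chosen after seeing the data. Same-numbered replicates were checked for pairing. All 10 members were named, up to 4 genes per list and line (those DE in the most variants in 1 direction, then by size), and the 2 most alike genes of each member whose log2 span exceeds 2. Members and lists were chosen with earlier results of these data known. Promoter sequences came from RefSeq. Results for some single genes are left out.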

Additional observations from a re-analysis of the deposited data

Results flagged for a closer look

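The change of 3 members under long-term estrogen deprivation differed between the lines by a test of the difference itself, beside 21.0% of all genes. The test took the mean of the 4 MM134 variants minus the mean of the 2 SUM44 variants. It covers the spread between wells and not that between derivations. The difference was 2.19 log2 units for ELF3, which rose in every MM134 variant and fell in both SUM44 variants. It was -1.31 for TBX3 and -1.33 for GATA3. The mean for GATA3 joins unlike changes in MM134, which were -0.65, -0.02, 0.22 and -1.01 in LTED-A, -B, -D and -E. All 3 kept their call in the fits that left out 1 sample and in the fit without the libraries with fibroblast markers.

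The 4 MM134 variants differed among themselves in 3 members, beside 19.6% of all genes. They differed in 4, with TFAP2C added, without the libraries with fibroblast markers, without a filter on low counts and at an adjusted p of 0.05. In these settings 4916 of 26711, 5719 of 49006 and 7162 of 26061 genes were called. The log2 range over the variants was 1.23 for GATA3 (highest in LTED-D, lowest in LTED-E) and 0.88 for ELF3 (highest in LTED-A, lowest in LTED-B). It was 1.75 for ELF5 (highest in LTED-D, lowest in LTED-E), whose counts of 12 to 75 per sample limit its precision.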

How the results depend on the processing

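The number of members called moved by over 1.5 times in some settings. Without a filter on low counts 1 member was DE in MM134 LTED-B (SPDEF fell below the required fold) and 2 differed between SUM44 LTED-A and LTED-B. Over all genes 4439 of 49006 and 2735 of 48481 were called. Between these SUM44 variants 2 members were called with DESeq2 (beside 2666 of 26834 genes) and 2 at an adjusted p of 0.05 (3881 of 26834). With every library separate 1 member was called (2593 of 26013 genes). Without the libraries with fibroblast markers 3 members were DE in SUM44 LTED-A, with 1 sample fewer in the test, beside 3245 of 26719 genes. On leaving out 1 sample, the number of members called stayed at 4 in MM134 LTED-A and ranged from 1 to 2 for LTED-B, 1 to 3 for LTED-D and 3 to 4 for LTED-E. Over all genes, 4911 to 5100, 3831 to 4030, 4263 to 4414 and 4636 to 4795 of 26736 to 26929 were DE in these fits. With all samples these were 5299, 4135, 4581 and 4947 of 26061. For SUM44 LTED-A the number of members was 3 to 4 on leaving out a SUM44F sample, and for LTED-B it was 1 to 2. Between these variants it was 0 on leaving out an LTED-B sample. Over all genes, 2811 to 3293, 3262 to 4223 and 1104 to 1155 of 25937 to 26981 were called in these fits. With all samples these were 3669, 4632 and 1990 of 26834. Leaving out an LTED-A sample leaves 1 sample in that arm, and no count is given here for it. The counts between the parental cells of the lines (4), between SUM44PE and SUM44F (0), between the lines in LTED change (3) and among the MM134 variants (3) did not move on leaving out 1 sample. At an adjusted p of 0.05 they were 5, 0, 4 and 4. ELF5 was added between the parental cells and between the lines in LTED change, and TFAP2C among the variants. Over all genes, 14487 of 29608, 2871 of 27457, 8645 of 29608 and 7162 of 26061 were called at 0.05. The count among the MM134 variants was also 4 without a filter and without the libraries with fibroblast markers, beside 5719 of 49006 and 4916 of 26711 genes. Where an arm was left with 1 sample, that sample was assumed to vary like the other groups.

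Replicate numbers did not pair the samples (median correlation of same-numbered samples 0.01 in MM134 and -0.02 in SUM44). With a replicate block 3 members were DE in SUM44 LTED-A, where FOXA1 (0.65) and GATA3 (1.04) were lost, and 1 in LTED-B, where GATA3 (0.85) was lost. Over all genes 2860 and 4249 of 26834 were DE with this block. GRHL2 turned to -0.00196 between SUM44 LTED-A and LTED-B.

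The values that changed sign all belonged to members that were not called. Without the libraries with fibroblast markers TFAP2C was 0.0874 in MM134 LTED-A and 0.31 in LTED-B. TFAP2A was 0.0107 in SUM44PE against SUM44F without the filter, and the difference of TFAP2B between the lines was -0.0671 with DESeq2. On leaving out 1 sample, TFAP2C ranged over -0.60 to 0.0872 in MM134 LTED-A. Its range was -0.39 to 0.31 in LTED-B, -0.0909 to 0.60 in LTED-E and -0.073 to 0.17 in SUM44 LTED-A. GATA3 ranged over -0.10 to 0.0243 in MM134 LTED-B. TFAP2B ranged over -0.0441 to 1.46 and ELF5 over -0.40 to 0.0949 in SUM44 LTED-A. Between SUM44PE and SUM44F, GATA3 ranged over -0.0968 to 0.0134 and TFAP2A over -0.0455 to 0.0662. The difference between the lines ranged over -0.61 to 0.44 for TFAP2B, -0.0417 to 0.66 for TFAP2C and -0.0951 to 0.0492 for SPDEF. Between SUM44 LTED-A and LTED-B, GATA3 ranged over -0.11 to 0.50 and TFAP2B over -0.46 to 1.07. The cause was not tested. The counts of TFAP2B in SUM44 and of ELF5 in all groups limit what can be seen of these genes.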

Other observations

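Luminal structural markers and basal genes were examined as further lists. Over all genes, 20.3%, 15.9%, 17.6% and 19.0% were DE in either direction in MM134 LTED-A, -B, -D and -E. In SUM44 LTED-A and -B the shares were 13.7% and 17.3%. The medians over all genes were -0.01, 0.02, -0.03 and 0.02, and -0.06 and -0.09. Whether these lists leaned up or down more than all genes was not tested. Of 8 luminal structural markers, 6, 5, 5 and 4 rose and 1, 0, 1 and 1 fell in MM134 LTED-A, -B, -D and -E (medians 0.88, 0.70, 0.68 and 0.88), whereas 0 and 0 rose and 3 and 4 fell in SUM44 LTED-A and -B (medians -0.13 and -0.70). The falls in MM134 LTED-A, -D and -E were of 1 and the same marker, which is not among those named next. KRT8, a keratin of simple epithelia, rose in all 4 MM134 variants by 0.79 to 1.11 log2 units. In SUM44 its value was -0.03 in LTED-A, and it fell by 1.05 in LTED-B. CD24, a luminal surface protein, rose in all 4 MM134 variants by 0.59 to 1.06 and fell in both SUM44 variants, with values of -2.16 to -1.47. SCGB2A2, which encodes mammaglobin, rose in all 4 MM134 variants from 0.0932 CPM to 1.24 to 29.0 CPM, and went from 196 CPM in SUM44F to 2.55 and 1.67 CPM in SUM44 LTED-A and -B.

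Of 16 basal and mesenchymal genes, 9 were tested in MM134 and 10 in SUM44. In SUM44 LTED-A 4 fell and none rose, and in LTED-B 6 fell and 1 rose (medians -1.17 and -2.195). LAMB3, a laminin chain, was at 66.4 CPM in SUM44F, 25.8 in SUM44PE, 11.0 in SUM44 LTED-A and 6.48 in LTED-B. TP63 and VIM also fell in both, and the levels in SUM44F include replicate 1, where the markers of other cells summed to 297 CPM. In the MM134 variants 2 rose in each and 3, 2, 3 and 2 fell. Of 10 markers of other cell types, 5 were tested in MM134 and 7 in SUM44. In the MM134 variants 2, 1, 3 and 2 rose and 2, 1, 1 and 2 fell, and in SUM44 none rose and 1 and 2 fell.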
